A study of Mus musculus with 10 samples.

Results

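The cytosolic heat shock chaperones were followed in mouse liver after an acetaminophen overdose, a painkiller that hepatocytes turn into a reactive, toxic metabolite when the dose is too high. The genes were taken by symbol from a list of 10: the HSP70 genes Hspa1a, Hspa1b and Hspa8, the HSP110 gene Hsph1, the HSP90 genes Hsp90aa1 and Hsp90ab1, the J-domain genes Dnajb1 and Dnaja1, the small heat shock protein gene Hspb1 and the HSP90 partner gene Chordc1. On the array, 9 of the 10 symbols were found, on 13 probes, among 31473 genes with a probe and 23979 genes tested. All 13 probes and so all 9 genes passed the filter on dim probes. No probe carried the symbol Hspa1b, and the probe named Hspa1a lists transcripts of both Hspa1a and Hspa1b, so its values cannot be told apart between these genes.

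Female C57BL/6 mice of 8 weeks were fasted for 24 h and injected intraperitoneally with 350 mg/kg acetaminophen in phosphate buffered saline, or with the saline alone. Livers were taken 3, 8, 24, 48 or 72 h later, and 2 arrays were run per time point, each with the RNA of a control mouse labelled with Cy3 and that of a treated mouse labelled with Cy5. The labels number the mice within a time point, and p-values measure the spread between these arrays. Control RNA was always on Cy3, so within a time point treatment and dye cannot be told apart for a given probe, while a dye effect common to all arrays cancels in a difference between time points.

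Chaperones of the cytosol bind unfolded or unfinished proteins. HSP70 proteins take up and release such clients in a cycle driven by ATP, in which J-domain proteins such as DNAJB1 and DNAJA1 deliver clients and speed up hydrolysis, and exchange factors such as HSPH1 release ADP. HSP90 proteins act later on kinases, receptors and other clients together with partners such as CHORDC1, while small heat shock proteins such as HSPB1 hold aggregating proteins without using ATP. Many of these genes are transcribed by heat shock factor 1, HSF1, which binds heat shock elements, arrays of the unit GAA in alternating orientation.

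Promoter sequences are shown because these elements are what many of the genes have in common outside the expression data. RefSeq promoters (GRCm38.p6, 250 bases before to 50 bases after a start) matched 7 of the 10 genes with 11 promoters, and Hspa8, Hsp90aa1 and Hsp90ab1 were not matched. A pair of facing units, GAANNTTC or TTCNNGAA (each its own reverse complement, so both strands are covered), lay in 7 of the 11 promoters and in at least 1 promoter of 6 of the 7 genes, against 15.1% of 32841 promoters of this length. A run of 3 units (GAA, TTC and GAA with 2 free bases between units, either strand, which contains both pairs) lay in 3 of the 11 promoters, those of Hsph1 and Chordc1, against 0.603% of all. The 11 promoters are not independent, since several are alternative starts of the same gene. Both promoters of Dnajb1 held neither pair, which says only that these letters are not in this window. The matches are a description and were not tested as binding sites.

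The promoters of Hspa1a and Hspa1b are printed whole up to the start, since the single probe covers both genes. For the other genes, stretches around their pairs are printed. Lower-case letters are the flanks and capitals mark the pairs, 5′ to 3′ on the strand of the gene.
Hspa1a, chr17:34972157-34972406, minus strand: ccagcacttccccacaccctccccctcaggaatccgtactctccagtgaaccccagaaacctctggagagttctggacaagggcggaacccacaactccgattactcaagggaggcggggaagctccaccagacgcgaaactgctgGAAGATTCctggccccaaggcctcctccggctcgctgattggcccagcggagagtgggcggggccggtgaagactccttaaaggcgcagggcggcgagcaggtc
Hspa1b, chr17:34959239-34959488, minus strand: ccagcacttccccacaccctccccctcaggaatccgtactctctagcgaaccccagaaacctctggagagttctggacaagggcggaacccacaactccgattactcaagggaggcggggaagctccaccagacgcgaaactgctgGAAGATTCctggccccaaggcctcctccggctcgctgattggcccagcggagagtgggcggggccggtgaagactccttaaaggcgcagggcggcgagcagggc
Hsph1, chr5:149636337-149636419, minus strand: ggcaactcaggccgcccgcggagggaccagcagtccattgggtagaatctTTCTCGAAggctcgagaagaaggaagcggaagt
Dnaja1, chr4:40722294-40722401, plus strand: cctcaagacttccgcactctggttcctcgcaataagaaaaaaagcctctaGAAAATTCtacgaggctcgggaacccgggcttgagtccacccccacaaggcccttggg
Hspb1, chr5:135887752-135887879, plus strand: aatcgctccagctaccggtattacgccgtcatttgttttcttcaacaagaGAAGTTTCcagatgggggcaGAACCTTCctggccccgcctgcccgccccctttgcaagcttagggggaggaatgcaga
Hsph1, chr5:149636287-149636303, minus strand: agaTTCTGGAAAGTTCt
Chordc1, chr9:18292260-18292288, plus strand: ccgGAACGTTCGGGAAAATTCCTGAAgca
Over the 250 bases before the start, Hspa1a and Hspa1b differed at 3 positions (98.8% identical), counted from 1 at the 5′ end of the stretch as C44T, T47C and T249G from Hspa1a to Hspa1b, and the pair from 104 to 97 bases before the start is the same in both. The first Hsph1 stretch holds a pair 33 to 26 bases before the upstream start, and the second the run of 3 units from 37 to 49 bases after it. The Chordc1 run holds 4 overlapping pairs from 4 bases before to 19 bases after its start, and a further pair of Chordc1, from 34 to 41 bases after the start, lies outside the printed stretch.

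The probes show what the arrays could tell apart. The Hspa1a probe (chr17:35107117-35107176 in mm9, the build of the files) and a probe of Hspa8 (from chr9:40612755-40613050 in mm9) are 60 bases each.
Hspa1a, probe A_55_P2068459: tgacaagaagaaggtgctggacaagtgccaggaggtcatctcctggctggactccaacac
Hspa8, probe A_55_P2069721: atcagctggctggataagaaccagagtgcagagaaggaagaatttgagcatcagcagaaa
The probe of Hspa8 printed here, and the brighter one that stands for the gene, also list a non-coding transcript beside that of Hspa8, so they may record more than Hspa8. The Hsp90aa1 probe likewise lists a predicted transcript beside that of Hsp90aa1. Levels depend on the probe, so no gene's level is set against that of another gene.

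Values below are log2 ratios of treated over control liver with the SE of the fit, and a gene is called where its adjusted p passed 0.05 in limma, with Benjamini-Hochberg adjustment over all 23979 genes tested. The 2 arrays of a time point were scanned in different batches, each of which held 1 array of every time point, so the 2 values given for a gene are also its values within each batch. The log2 ratios of the 2 arrays correlated across genes, which are not independent replicates, at 0.27 at 72 h and at 0.68 to 0.86 at the other time points. All 13 probes were well above background in the control channel on all 10 arrays and none was saturated. In the treated channel the Hspa1a probe was well above background on 8 of 10 arrays, falling short on 1 of the 2 arrays at 3 h and at 72 h. The livers carried the markers of hepatocytes, with all 10 measured. In bulk tissue, fewer cells of a type and less RNA per cell cannot be told apart.

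The direction of the ratios turned between 3 h, when 4 of the 9 genes were called lower, and 8 h and 24 h, when 5 and 7 were called higher. The median log2 ratio of the 9 genes was -0.97, 0.87, 1.13, 0.11 and -0.16 at 3, 8, 24, 48 and 72 h, in that order. The median of all genes tested lay between -0.01 and 0.00, which follows from the loess normalization within arrays. The size of these medians depended on the scaling: median centring in place of loess gave -2.20 at 3 h, 0.15 at 8 h and 0.78 at 48 h, the software's own ratio gave 1.92 at 24 h, and scaling the spread between arrays gave -0.54 at 3 h and 2.79 at 24 h. At 3 h, 8 of the 9 genes were below 0 on both arrays and the other, Dnajb1, was split. At 8 h 7 were above 0 on both arrays and Hsp90ab1 and Chordc1 below 0 on both. At 24 h all 9 were above 0 on both arrays. The 2 arrays of a time point correlated across genes, and the share of all genes with the same sign on both was not counted. These counts of signs therefore only describe the 9 genes. All 9 differed between time points by the moderated F test of limma (adjusted p from 0.000518 for Hsph1 to 0.0464 for Hspa1a), against 23.3% of all genes tested.

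**Figure D1:**
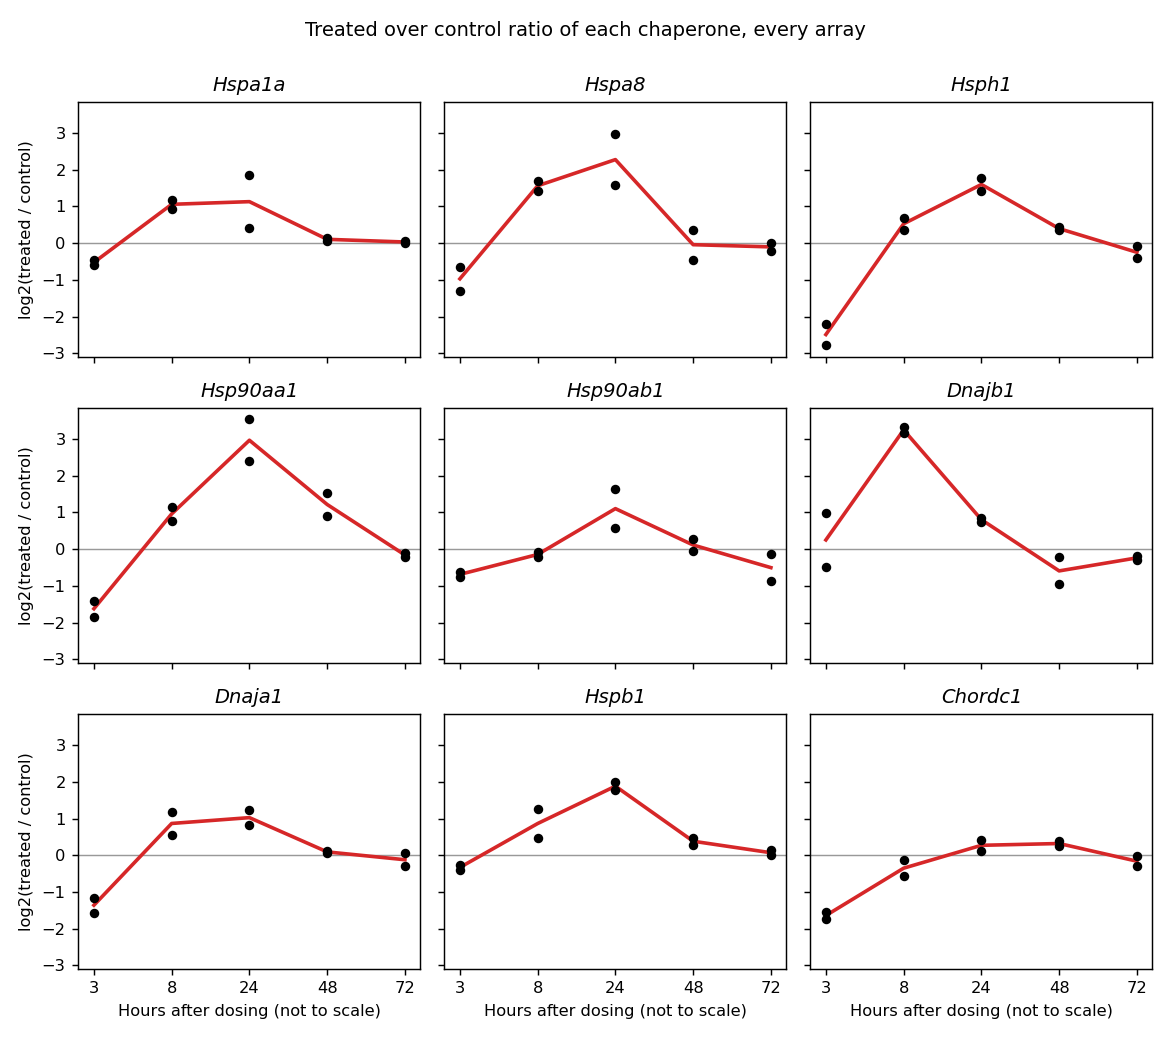
Log2 ratio of treated over control liver for each of the 9 chaperone genes at 3, 8, 24, 48 and 72 h, with 1 point per array, 2 arrays per time point, and a line through the means. Hsph1 lies lowest at 3 h (-2.78 and -2.20), Dnajb1 is highest at 8 h (3.16 and 3.34) and Hsp90aa1 at 24 h (3.53 and 2.40).

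At 3 h, 4 of the 9 genes were called and all 4 were lower in treated liver, against 4.08% of all genes tested called lower and 7.45% called either way. Hsph1, the exchange factor of HSP70, was at -2.78 and -2.20 on its 2 arrays. Its mean of -2.49 ± 0.16 was 5.62-fold lower (adjusted p = 0.000357, limma). The HSP90 partner Chordc1 was at -1.73 and -1.55 (mean -1.64 ± 0.13, adjusted p = 0.000781, limma). Both genes lay far below 0 on each array, with less than 1 log2 unit between the arrays. The stress-inducible HSP90 gene Hsp90aa1 was at -1.84 and -1.40 (mean -1.62 ± 0.26, adjusted p = 0.012, limma). The J-domain gene Dnaja1 was at -1.56 and -1.16 (mean -1.36 ± 0.18, adjusted p = 0.00524, limma). The 4 genes called are the exchange factor Hsph1, the J-domain gene Dnaja1, 1 HSP90 gene and an HSP90 partner.

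The remaining 5 genes were not called at 3 h. The constitutive HSP70 gene Hspa8 was at -1.31 and -0.64 (adjusted p = 0.116, limma), but its other 2 probes were called in the fit over all probes, at -1.08 ± 0.14 and -1.32 ± 0.30. With these 2 probes included, Hspa8 was called lower in 8 of its 25 alternatives. The constitutive HSP90 gene Hsp90ab1 was at -0.75 and -0.62, the Hspa1a probe at -0.60 and -0.45, and Hspb1 at -0.26 and -0.40. The Hspa1a probe was called lower in 5 of its 22 alternatives, whose values went down to -2.09. Hsp90ab1 and Hspb1 were each called lower in 1 of 23. Dnajb1 was at -0.49 on one array and 0.99 on the other, so the 2 livers went opposite ways, and its mean of 0.25 had a 95% interval from -0.46 to 0.96. Without replicate 1 at 3 h, 2 of the 4 calls were lost: Hsp90aa1 was then at -1.40 (adjusted p = 0.152, limma) and Dnaja1 at -1.16 (adjusted p = 0.085, limma). With each array only median-centred instead of loess-normalized, 7 of the chaperone genes were called, all lower. That setting called 5994 of all 23979 genes tested at 3 h, against 1786 in the main fit. With the spread scaled between arrays 0 of the chaperone genes were called, and 0 of all 23979 genes tested. Neither count therefore singles out the chaperones.

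At 8 h the called genes were all higher in treated liver, 5 of 9 against 5.35% of all genes tested called higher and 12.9% called either way. Dnajb1, the J-domain partner of HSP70, was at 3.16 and 3.34, a mean of 3.25 ± 0.31 or 9.50-fold (adjusted p = 0.00116, limma). Hspa8 was at 1.69 and 1.43 (mean 1.56 ± 0.32, adjusted p = 0.0196, limma). The Hspa1a probe was at 1.18 and 0.93 (mean 1.06 ± 0.27, adjusted p = 0.0402, limma). The HSP70 genes and Dnajb1 thus stood above 0 on both arrays with little distance between the arrays. Dnaja1 was at 1.19 and 0.54 (mean 0.87 ± 0.18, adjusted p = 0.0187, limma). Hspb1 was at 0.47 and 1.26 (mean 0.86 ± 0.17, adjusted p = 0.0153, limma). In these 2 genes the higher array was at more than 2 times the log2 ratio of the lower one.

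Neither HSP90 gene was called at 8 h. Hsp90aa1 was at 1.15 and 0.77 and missed the threshold (mean 0.96 ± 0.26, adjusted p = 0.0507, limma), but it was called higher in 9 of its 23 alternatives. Hsph1 was at 0.69 and 0.36, and Hsp90ab1 at -0.22 and -0.06. Chordc1 was at -0.13 and -0.57. Leaving out either array at 8 h left 2 genes called, and the Hspa1a call was lost in 10 of its 22 alternatives. Fewer of all genes were also called when either 8 h array was left out. With median centring 1 gene, Dnajb1, was called (2.52, adjusted p = 0.045, limma), and Dnaja1 was then at 0.13 and Hspb1 at 0.15. Of all 23979 genes tested, 2533 were called at 8 h under median centring.

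At 24 h, 7 of the 9 genes were called, all higher, against 3.8% of all genes tested called higher and 10.9% called either way. The order at 24 h was led by Hsp90aa1, with 3.53 and 2.40 on the 2 arrays and a mean of 2.97 ± 0.26, or 7.82-fold (adjusted p = 0.00045, limma). Hspa8 was at 2.97 and 1.58 (mean 2.27 ± 0.32, adjusted p = 0.00342, limma). Hspb1 was at 2.00 and 1.77 (mean 1.88 ± 0.17, adjusted p = 0.000463, limma). In Hsp90aa1 and Hspa8 the first array was more than 1 log2 unit above the second, while the 2 arrays of Hspb1 lay close together. Hsph1 was at 1.41 and 1.78 (mean 1.60 ± 0.16, adjusted p = 0.000716, limma). Dnaja1 was at 1.23 and 0.82 (mean 1.02 ± 0.18, adjusted p = 0.00841, limma).

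The smallest margins among the calls at 24 h were those of the Hspa1a probe and Hsp90ab1. The Hspa1a probe was at 0.41 and 1.84 (mean 1.13 ± 0.27, adjusted p = 0.0337, limma) and Hsp90ab1 at 1.63 and 0.58 (mean 1.10 ± 0.25, adjusted p = 0.0257, limma). Their 2 arrays lay apart by about as much as the mean itself, and the array that was higher was not the same one. Dnajb1 was at 0.86 and 0.75 and Chordc1 at 0.12 and 0.42, and neither was called. The Hspa1a call was lost in 11 of its 22 alternatives, at 0.41 without replicate 3 at 24 h (adjusted p = 0.144, limma), and that of Hsp90ab1 in 6 of 23, at 0.58 without replicate 1 (adjusted p = 0.216, limma). The software's own ratio put the Hspa1a probe at 2.96 at 24 h and 2.26 at 8 h. Over the alternatives that left out no array, the adjusted p of this probe (limma) ran from 2.5e-05 to 0.165 at 24 h. At 8 h it ran from 0.000196 to 0.129. With median centring or with the spread scaled between arrays 1 gene was called at 24 h: Hsp90aa1 at 2.20 (adjusted p = 0.04, limma) in the first and Hspa1a at 1.18 (adjusted p = 0.039, limma) in the second. Of all 23979 genes tested, 757 were called at 24 h in the first setting and 329 in the second.

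At 48 h 1 of the 9 genes, Hsp90aa1, was called, while 17.9% of all genes tested were called higher and 31.4% either way. Hsp90aa1 was at 1.53 and 0.91 (mean 1.22 ± 0.26, adjusted p = 0.00983, limma). The other 8 genes had means from -0.59 (Dnajb1, at -0.96 and -0.22) to 0.39 (Hsph1, at 0.35 and 0.44). Without replicate 1 at 48 h the call of Hsp90aa1 was lost (0.91, adjusted p = 0.099, limma). With the spread scaled between arrays it was lost too (0.85, adjusted p = 0.882, limma). That setting called 721 of all 23979 genes tested at 48 h, against 7538 in the main fit.

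At 72 h none of the 9 genes and 0 of the 23979 genes tested (0%) was called by limma. At an unadjusted p under 0.05 there were 767 genes (3.2%) and 0 of the 9 chaperones. Their means ran from -0.50 (Hsp90ab1, at -0.87 and -0.13) to 0.07 (Hspb1). The 95% interval for Hsp90aa1 was -0.76 to 0.45 and that for Hsph1 was -0.62 to 0.12, so changes as large as those of either gene at 24 h lie outside these intervals.

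The members did not peak together. Between 3 h and 8 h the ratio rose in 5 of 9 genes against 0.53% of all genes tested (0.817% either way): by 3.02 ± 0.23 for Hsph1, 3.00 ± 0.43 for Dnajb1, 2.58 ± 0.37 for Hsp90aa1, 2.23 ± 0.25 for Dnaja1 and 1.29 ± 0.18 for Chordc1. Between 8 h and 24 h, 3 rose and 1 fell, against 2.47% of all genes tested called higher, 3.82% lower and 6.29% either way. Hsp90aa1 rose by 2.01 ± 0.37 (adjusted p = 0.0195, limma), Hsph1 by 1.07 ± 0.23 and Hspb1 by 1.02 ± 0.24. Dnajb1 fell by 2.44 ± 0.43 (adjusted p = 0.0167, limma). Hsp90aa1 and Dnajb1 thus moved in opposite directions over the same interval.

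Between 24 h and 48 h the ratio fell in 4 of 9 genes, against 2.66% of all genes tested called lower and 10.5% either way. Hspa8 fell by 2.32 ± 0.46, Hsp90aa1 by 1.75 ± 0.37, Hspb1 by 1.50 ± 0.24 and Hsph1 by 1.20 ± 0.23. Between 48 h and 72 h Hsp90aa1 fell by a further 1.37 ± 0.37 (adjusted p = 0.041, limma), 1 of 9 genes against 10.1% of all genes called lower and 16.6% either way. These calls depended on single arrays: leaving out single arrays left between 0 and 6 genes for 3 to 8 h, 0 and 3 for 8 to 24 h, 0 and 5 for 24 to 48 h, and 0 and 1 for 48 to 72 h. With median centring or scaled spread, 0 genes were called in any of the 4. How many of all genes passed in these alternatives was not counted.

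Taken by gene, the order of the ratios set Hsp90aa1 at 24 h above all its other times (next 48 h, difference 1.75, adjusted p = 0.0251, limma). Dnajb1 was highest at 8 h, above 24 h by 2.44, and its other 4 time points did not differ from their neighbours in that order. For Hsph1 the lowest time, 3 h, was 2.24 below the next, 72 h (adjusted p = 0.0075, limma), and its highest, 24 h, was 1.07 above 8 h. Hspb1 was highest at 24 h, 1.02 above 8 h. For Chordc1 only the step from its lowest time, 3 h, to 8 h passed (1.29), and 8, 72, 24 and 48 h, in rising order, did not differ from their neighbours. On single arrays, both ratios of 3 h lay below the 8 later ones in 7 of the 9 genes, all but Hsp90ab1 and Dnajb1, against 7.71% of the genes with a value on every array. Both ratios of 24 h lay above the other 8 in 4 genes, Hsph1, Hsp90aa1, Hsp90ab1 and Hspb1, against 2.07%. In Hspa1a, Hspa8, Hsp90ab1 and Dnaja1, no neighbours in the order of the ratio differed past the threshold, although all 4 had passed the F test over time.

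Control livers also changed over time, so each channel was examined on its own. Per gene, the channel levels are log2 intensities after loess and quantile normalization between arrays of the mean log intensity of both channels. This gives that mean the same distribution over probes on every array. In control liver, 4 of 9 genes differed over time by the moderated F test of limma, against 3.65% of all genes tested: Hsph1 (adjusted p = 0.0209), Chordc1 (0.0343), Hspa8 (0.0446) and Dnaja1 (0.0455). Control levels were highest at 3 h for most of the set. In 6 of the 9 genes (Hspa8, Hsph1, Hsp90ab1, Dnajb1, Dnaja1 and Chordc1) both control livers at 3 h lay above all 8 later ones, against 6.52% of the genes with a value on every array, a comparison added after the values had been seen.

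Hsph1 showed the widest range in control liver. Its control level was 11.52 and 10.99 on the arrays of 3 h, 9.90 and 10.38 on those of 8 h, 9.56 and 9.30 on those of 24 h, 9.05 and 8.85 on those of 48 h, and 9.37 and 9.88 on those of 72 h. The levels at 3 h lay above those of every later time, and those at 48 h were lowest. The differences from 3 h were -1.83 ± 0.25, -2.30 ± 0.25 and -1.63 ± 0.25 for 24, 48 and 72 h, all called (adjusted p = 0.0141, 0.0142 and 0.0247, limma). Chordc1 stood at 10.12 on both arrays at 3 h and between 8.66 and 9.13 from 24 h on, with differences of -1.16 ± 0.20, -1.44 ± 0.20 and -1.18 ± 0.20 at 24, 48 and 72 h, all called. Dnaja1 stood at 13.66 and 13.51 at 3 h and between 12.09 and 12.67 from 24 h on, with differences of -1.06 ± 0.21, -1.38 ± 0.21 and -1.07 ± 0.21, all called. In these 3 genes the control levels of 24, 48 and 72 h did not overlap with those of 3 h.

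Counted over the set, control livers were lower than at 3 h in 4 of 9 genes at 24 h (0.867% of all genes called lower), in 5 at 48 h (4.71%) and in 3 at 72 h (1.91%), and higher in 0. Those counts were 2, 3 and 1 with normexp at offset 0, and 6, 6 and 1 with quantile normalization over all 20 channels. None of these calls held when either 3 h array was left out, and those at 24 h were also lost without either 24 h array. At 8 h, 0 of 9 were called by limma (0% of all genes), while 6 of 9 had an unadjusted p under 0.05, against 6.06% of all genes. Hspa8 was called at 24 h alone, at -1.23 ± 0.23, with levels of 15.80 and 15.67 on the arrays of 3 h, 14.12 and 14.64 on those of 8 h, 14.23 and 14.78 on those of 24 h, and 15.33 and 15.39 on those of 48 h. Hsp90aa1 and Dnajb1 were called at 48 h alone, at -1.33 ± 0.32 and -0.96 ± 0.20. Hspb1 went the other way at 24 h, at 11.43 and 11.54 against 11.01 and 10.88 at 3 h, a difference of 0.54 that was not called. The count of 4 genes past the F test was 0 to 3 when single arrays were left out: it was 0 without either array at 3 h or replicate 1 at 24 h, and 1 without replicate 3 at 24 h or any array at 48 h or 72 h.

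**Figure D2:**
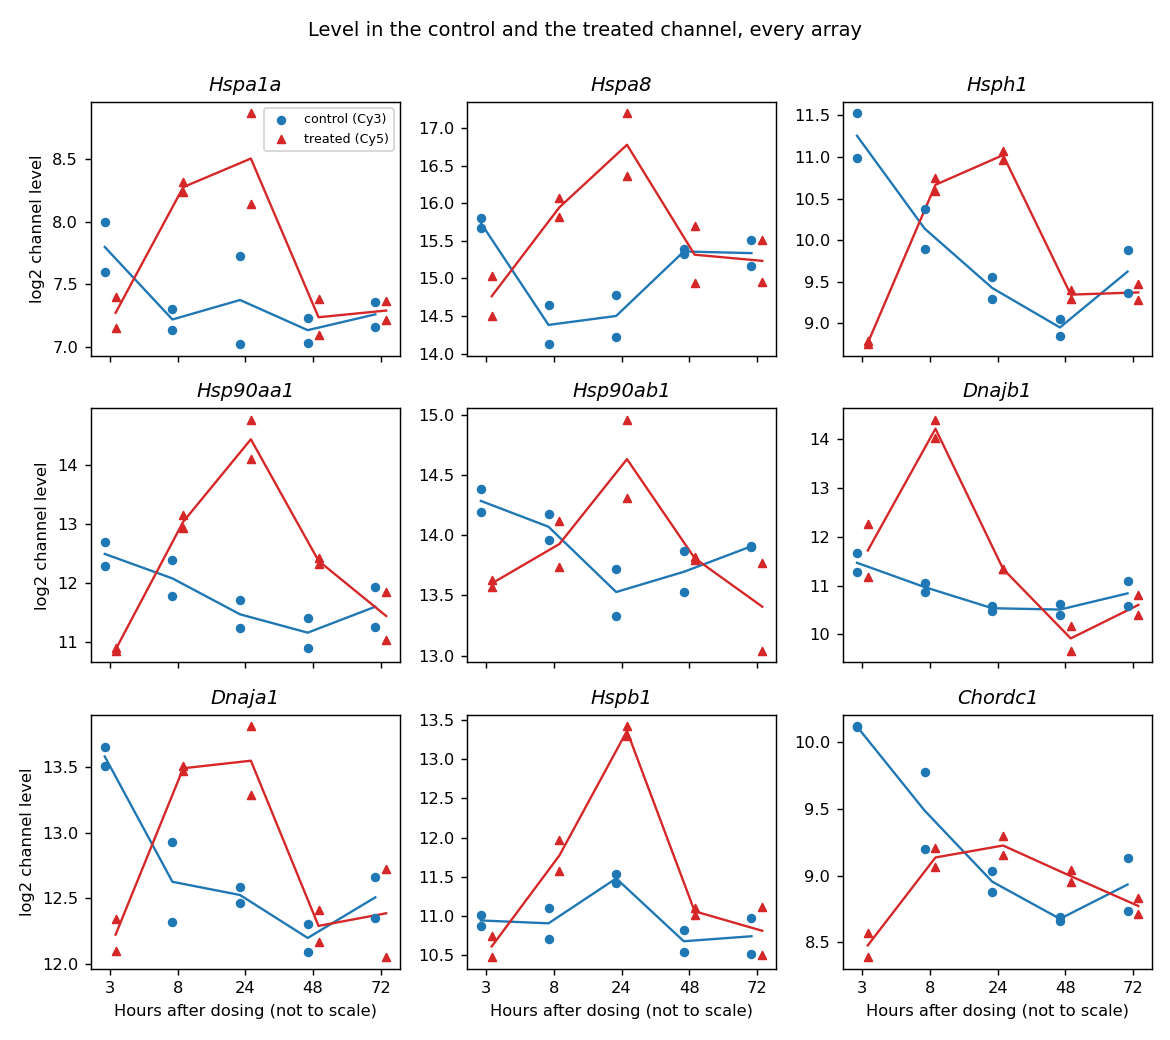
Log2 level of each chaperone gene in the control (Cy3, circles) and the treated channel (Cy5, triangles) at 3, 8, 24, 48 and 72 h, with 1 symbol per array and lines through the means. Axes differ between panels. The control levels of Hsph1 fall from 11.52 and 10.99 at 3 h to 9.05 and 8.85 at 48 h, while its treated levels go from 8.75 and 8.78 at 3 h to 10.97 and 11.08 at 24 h.

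In treated liver, 8 of 9 genes differed over time by the F test, against 19.1% of all genes tested, Hsp90ab1 being the other (adjusted p = 0.076, limma). Hsph1, Hsp90aa1 and Chordc1 had both treated livers at 3 h below all 8 later ones, 3 of 9 against 3.39% of the genes with a value on every array. Against 3 h, treated levels were higher at 8 h in 3 of 9 genes (0.217% of all genes called higher): Dnajb1 by 2.50 ± 0.34, Hsp90aa1 by 2.17 ± 0.28 and Hsph1 by 1.90 ± 0.13. At 24 h, 7 of 9 were higher than at 3 h (5.43%), from 0.75 ± 0.14 for Chordc1 to 3.56 ± 0.28 for Hsp90aa1. Chordc1 was therefore among the genes that rose in treated liver between 3 h and 24 h, although its ratio at 24 h was not called. At 48 h 3 genes were still higher than at 3 h (7.88%), Hsp90aa1 at 1.50 ± 0.28, Hsph1 at 0.58 ± 0.13 and Chordc1 at 0.52 ± 0.14, and 1 was lower (4.2%). That 1 was Dnajb1, which had reached 14.04 and 14.40 at 8 h and was at 9.67 and 10.17 at 48 h, a difference from 3 h of -1.80 ± 0.34 (adjusted p = 0.0114, limma). At 72 h Hsph1 alone was higher (0.61 ± 0.13, against 1.57% of all genes). These counts depended on the processing. With quantile normalization over all 20 channels, 3, 8, 1 and 0 genes were higher than at 3 h at 8, 24, 48 and 72 h. With normexp at offset 0 they were 1, 7, 1 and 0. The rises called at 8, 48 and 72 h did not hold without replicate 1 at 3 h. With the replicate block the call of Hsph1 at 72 h was lost too. Both treated livers of 24 h lay above the other 8 in 5 genes, Hspa8, Hsph1, Hsp90aa1, Hsp90ab1 and Hspb1, against 4.22% of the genes with a value on every array.

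The levels at 3 h set the ratio of that time in context. The treated livers at 3 h had 8.75 and 8.78 for Hsph1, against 9.37 and 9.88 in control livers at 72 h. For Dnaja1 they had 12.10 and 12.35, against 12.35 and 12.67 in those controls, and for Chordc1 8.39 and 8.57, against 8.74 and 9.13. For Hsp90aa1 they had 10.85 and 10.90, against 11.26 and 11.94. These 4 are the genes called lower at 3 h, and their treated levels at 3 h lay below the controls of 72 h, or for Dnaja1 reached the lower of them. Control levels at 48 h were 9.05 and 8.85 for Hsph1, 12.30 and 12.09 for Dnaja1, 8.66 and 8.69 for Chordc1. For Hsp90aa1 they were 10.91 and 11.42. The treated levels of Dnaja1 at 3 h overlapped with its controls of 48 h, and those of Hsp90aa1 came close to the lower one. How many of all genes lie this way was not counted. These values lie on different dyes and were not tested against each other.

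Where a gene had several probes, the timing did not always match. For Hspa8, the probe A_52_P12877 was highest at 8 h (2.07 and 1.77) and at 1.57 and 1.36 at 24 h, whereas the probe that stands for the gene was highest at 24 h. At 48 h A_52_P12877 was called higher (0.55 ± 0.14, adjusted p = 0.0205, limma over 29587 probes), while the other 2 Hspa8 probes were at -0.10 and -0.04. The 2 Hsph1 probes had the same sign from 3 h to 24 h, at -2.15 and -2.49, 0.40 and 0.53, and 1.52 and 1.60. At 8 h the dimmer probe A_55_P2003513 was called higher (0.40 ± 0.10, adjusted p = 0.0376, limma over the probes). The probe that stands for Hsph1 was not called at 8 h. At 48 h the 2 Hsph1 probes were at -0.23 and 0.39, and neither was called. For Dnaja1 the second, dimmer probe A_55_P1992149 was at -0.66 and -0.23 at 8 h (mean -0.44 ± 0.11, adjusted p = 0.0412, limma over the probes) and at -0.02 and 0.05 at 24 h. The 2 Dnaja1 probes agree in direction at 3 h and disagree at 8 h, so the rise of Dnaja1 at 8 h and 24 h holds for 1 of its 2 probes. That second probe was well above background in the treated channel on 7 of 10 arrays.

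**Figure D3:**
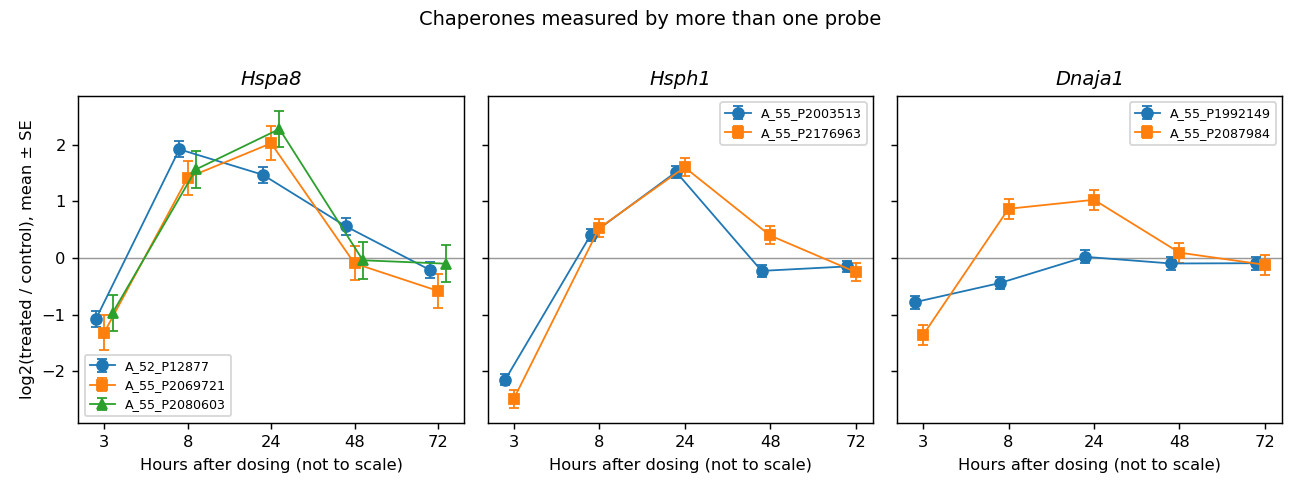
Mean log2 ratio of treated over control liver with its SE for every probe of Hspa8 (3 probes), Hsph1 (2) and Dnaja1 (2) at 3, 8, 24, 48 and 72 h, 2 arrays per time point. The Hsph1 probes run together to 24 h, and the Dnaja1 probes part at 8 h, at 0.87 and -0.44.

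The partners of the chaperones were taken from lists that leave out the 9 genes. Over all genes tested, 3.37% were called higher and 4.08% lower at 3 h, and the shares were 5.35% and 7.58% for 8 h, 3.8% and 7.11% for 24 h, and 17.9% and 13.5% for 48 h. Of 23 measured HSP70 cycle partners, 0 were higher and 3 lower at 3 h, 4 and 4 at 8 h, 1 and 0 at 24 h, and 7 and 1 at 48 h, with list medians between -0.15 and 0.26. Bag3, an exchange factor that links HSP70 to autophagy, was higher at 8 h (0.91 ± 0.24) and at 24 h (1.55 ± 0.24, adjusted p = 0.00549, limma), and it was the 1 partner called at 24 h. Hspa4, an HSP110 gene like Hsph1, was higher at 8 h at 1.36 ± 0.12 (adjusted p = 0.000916, limma). Its close relative Hspa4l was lower at 3 h and 8 h, at -0.83 ± 0.08 and -0.62 ± 0.08. Members of the HSP110 family were thus called in different directions at 8 h.

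Of 17 measured HSP90 co-chaperones, 3 were higher and 5 lower at 3 h, 2 and 6 at 8 h, 2 and 2 at 24 h, and 4 and 2 at 48 h, with list medians between -0.27 and 0.01. Ahsa1, which encodes an activator of the HSP90 ATPase, was lower at 3 h at -1.11 ± 0.10 (adjusted p = 0.0013, limma), and Cacybp was at -1.30 ± 0.18. At 8 h Stip1, which encodes the adaptor between HSP70 and HSP90, was at -0.78 ± 0.10 and Fkbp4 at -0.82 ± 0.12, both called lower. Fkbp5, a glucocorticoid-induced immunophilin gene, was higher at 3 h and 8 h, at 0.66 ± 0.14 and 1.26 ± 0.14. At 24 h, when Hsp90aa1 was at 2.97, the largest called rise in this list was that of Ptges3 at 0.78 ± 0.16. At 48 h Cacybp stood higher at 1.40 ± 0.18 and Rpap3 at 1.39 ± 0.18, while Ppid was at -0.87 ± 0.12.

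Of 6 measured small heat shock proteins beside Hspb1, Hspb8 was the 1 called at 8 h (2.19 ± 0.26, adjusted p = 0.00255, limma). At 48 h Hspb8 and Hspb2 were higher, at 1.24 ± 0.26 and 0.49 ± 0.12, and 3 were lower: Hspb9 at -0.85 ± 0.14, Cryaa at -0.71 ± 0.22 and Hspb6, named after its value was seen, at -0.27 ± 0.08. None of the 6 was called at 24 h, when Hspb1 was at 1.88. Of 4 measured genes of the heat shock transcription factor list, none was called at 3 h or 8 h, the HSF-binding protein gene Hsbp1 was lower at 24 h (-0.62 ± 0.10), and Hsf1 and Hsf2 were lower at 48 h, at -0.32 ± 0.10 and -0.51 ± 0.13. HSF1 is regulated largely after translation, and these arrays measure its transcript.

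Among 11 mitochondrial chaperones and proteases, Hspd1 and Hspe1, which encode the HSP60 chaperonin and its lid, were higher at 24 h at 1.23 ± 0.17 and 0.82 ± 0.20. At the same time Trap1, the mitochondrial HSP90, was lower at -1.04 ± 0.12. Hspa9, the mitochondrial HSP70, was higher at 48 h at 2.33 ± 0.27. Clpx, a subunit of a mitochondrial protease, was higher at 3, 8 and 48 h, at 1.51 ± 0.19, 1.44 ± 0.19 and 1.14 ± 0.19. Of the HSP90 genes, Hsp90aa1 and Hsp90ab1 were thus called higher and Trap1 lower at 24 h. Among the HSP70 genes of the set, Hspa8 and the Hspa1a probe were called higher at 8 h and 24 h, while the mitochondrial Hspa9 was called higher at 48 h. These differences between genes were not tested.

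Of 18 other genes known to respond to heat or cold shock, 7 were higher and 1 lower at 3 h, and 11 were higher and 0 lower at 8 h. The list medians were 0.32 and 1.27. The immediate early gene Jun was at 4.49 ± 0.17 at 3 h and 5.09 ± 0.17 at 8 h, and Hmox1, which encodes the heme-degrading enzyme heme oxygenase, was at 2.95 ± 0.19 at 3 h. Jun and Hmox1 were thus high at 3 h, when 4 cytosolic chaperones were low, but 10 of the 18 genes were not called at that time. At 24 h 5 of the 18 were higher and 1 lower, led by Zfand2a at 2.78 ± 0.30, an arsenite-inducible zinc finger gene, and at 48 h 8 were higher and 2 lower.

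**Figure D4:**
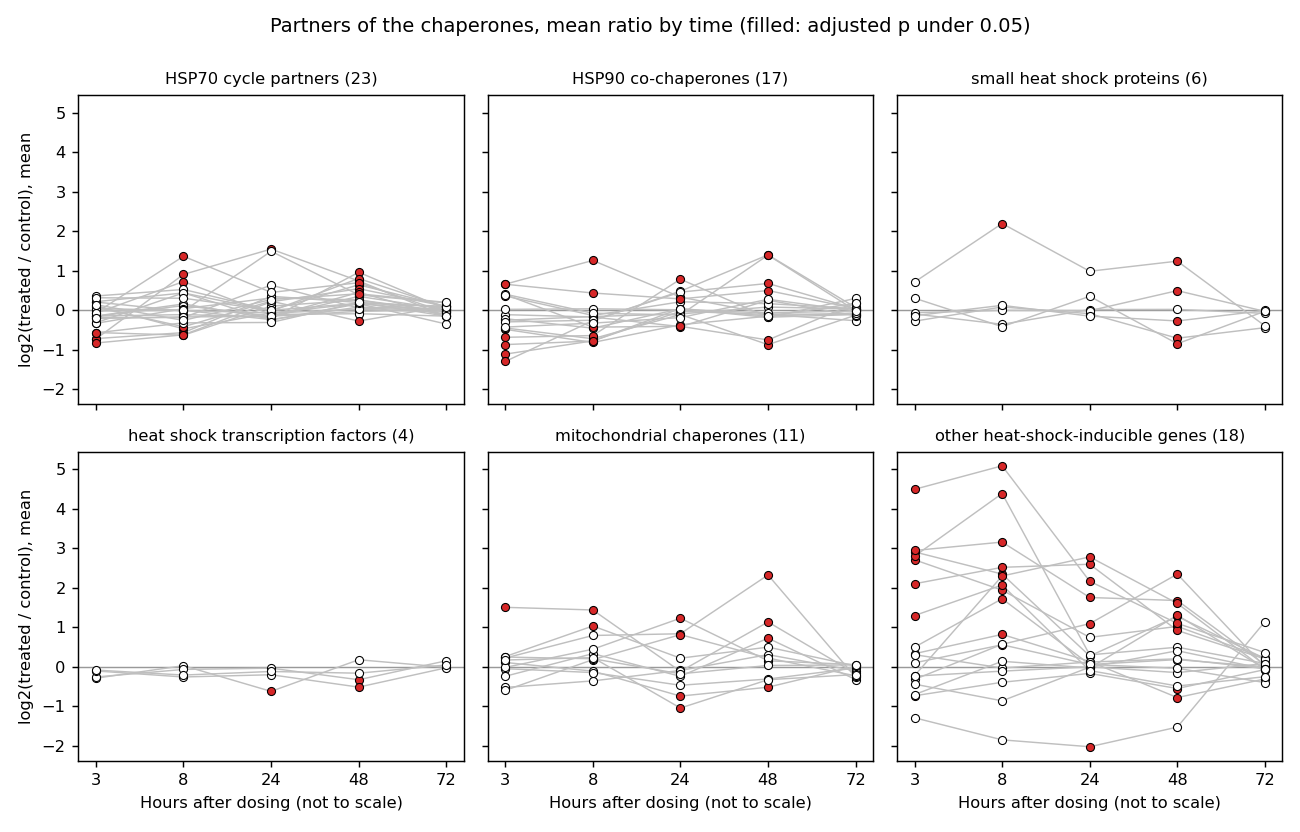
Mean log2 ratio of treated over control liver for the measured genes of 6 lists at 3, 8, 24, 48 and 72 h, with 1 line per gene and filled points where the adjusted p of limma was under 0.05. Most HSP70 and HSP90 partners lie between -1 and 1 at every time, and the other heat-shock-inducible genes reach 5.09 (Jun) at 8 h. At 72 h 0 of the 79 genes were called, and 2 had an unadjusted p under 0.05.

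Over the 10 arrays, the genes whose log2 ratios ran most like the mean standardised ratio of the 9 chaperones were Nop56 (Pearson r = 0.949), Sh3bp2 (0.935), Socs3 (0.935), Heatr1 (0.933), Ngdn (0.932), Cyp4a32 (0.93), Aldoa (0.924) and Hspa5 (0.922), of 17501 genes ranked. These correlations rank genes over 5 time points and carry no test, and the arrays share their time points. Hspa5, the HSP70 of the endoplasmic reticulum, was at -0.74, 1.40, 1.85, 0.71 and -0.70 at 3, 8, 24, 48 and 72 h. Nop56, a component of nucleolar ribonucleoproteins, was at -0.29, 0.73, 1.44, 0.73 and 0.24 at the same times.

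Markers of cell types were called at several times. Over all genes tested, 3.37% were called higher at 3 h and 5.35% at 8 h. At 24 h 3.8% were called higher and 7.11% lower, and at 48 h 17.9% higher and 13.5% lower. Of 10 hepatocyte markers, 4 were higher at 8 h and 5 were lower at 24 h and at 48 h, and their summed level in treated liver ran from 19.5 at 3 h on both arrays to between 18.8 and 19.1 at 24 h, where it was 19.3 to 19.5 in control liver. Of 8 measured neutrophil markers, 1 was higher at 3 h (Elane at 0.47 ± 0.09) and 3 at 24 h (S100a9 at 3.04 ± 0.50), and at 48 h 4 were higher and 1 lower. Their summed level at 24 h was 14.8 to 15.4 in treated and 14.0 to 14.4 in control liver, and at 48 h it was 14.6 to 14.9 in treated and 14.7 to 14.9 in control liver. Of 11 measured macrophage and Kupffer cell markers, 0 were called at 3, 8 and 24 h and 4 were higher at 48 h (Marco at 3.76 ± 0.73). Their summed level at 48 h was 14.2 to 14.8 in treated and 12.8 to 13.1 in control liver. In each of the lymphocyte, sinusoidal endothelial, stellate and cholangiocyte lists, between 0 and 2 markers were called higher and 0 or 1 lower at any time. The markers Mpo and Epcam were too dim to be kept. The part of these changes in the chaperone values was not tested.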

How the data were processed

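Liver RNA of 10 control and 10 treated mice was measured on 10 2-colour Agilent arrays. Spots were quantified by the scanner maker's Feature Extraction software, version 10.7.3.1, per the file headers. Each deposited file holds mean and background intensity per spot and the software's log10 ratio. The authors' deposited value table holds a score that, set against the scanner files, equals 1.44 times that log10 ratio (correlation 1, median 0 on each array), so its direction is treated over control. It was rescaled and used as an alternative.

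Intensities were corrected with normexp (offset 50) and loess-normalized within arrays (limma 3.58.1, R 4.3.3), with 1377 control spots and 2718 outlier spots left out. Probes well above background in 1 channel on both arrays of a time point were kept (29587 of 39429), 26581 probes were named by accession through RefSeq, and the brightest kept probe stood for a gene. The linear model had a term for each time point, which leaves 5 residual degrees of freedom. Channel levels were normalized between arrays with Aquantile. The number of arrays limits the precision. The fit was tested on simulated data.

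The genes, lists and tests were chosen with earlier results of these data known. Named genes were all members and probes, per list and time up to 2 called rises and 2 called falls, and the 8 genes most like the members. Same-numbered arrays of 3, 24, 48 and 72 h deviated together at -0.04 to 0.29, so numbers were not taken as pairs. Alternatives covered background, normalization, filters, probes, blocks and left-out arrays.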

Additional observations from a re-analysis of the deposited data

Results flagged for a closer look

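The ratio of treated over control liver differed between neighbouring time points, by a test of the difference itself in limma, in the following cases, each with 2 arrays per time point. From 3 h to 8 h the log2 ratio changed by 3.02 for Hsph1, 3.00 for Dnajb1, 2.58 for Hsp90aa1, 2.23 for Dnaja1 and 1.29 for Chordc1, with adjusted p from 0.00477 to 0.0339. From 8 h to 24 h it changed by 2.01 for Hsp90aa1, 1.07 for Hsph1, 1.02 for Hspb1 and -2.44 for Dnajb1, with adjusted p from 0.0167 to 0.0464. From 24 h to 48 h it changed by -2.32 for Hspa8, -1.75 for Hsp90aa1, -1.50 for Hspb1 and -1.20 for Hsph1, with adjusted p from 0.01 to 0.0251. From 48 h to 72 h it changed by -1.37 for Hsp90aa1 (adjusted p = 0.041). Groups of 2 arrays are too small to mark a single array as an outlier.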

How the results depend on the processing

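Counts below are of the 9 chaperone genes, and the cause of a change was not tested. With normexp at offset 0, 2 genes differed between 8 and 24 h and 1 in control livers over time. Without background subtraction 3 differed between 48 and 72 h. Under median centring, used instead of loess, the median of all genes moved to -0.24 at 3 h and -0.18 at 8 h. Then 7 genes were called at 3 h, 1 at 8 h and 1 at 24 h, against 5994, 2533 and 757 of all 23979 genes tested. Between any neighbouring time points 0 differed, and 3 passed the F test over time. The uncalled values of Dnajb1 at 3 h and Hsph1 at 8 h were then -0.88 and -0.17. With the software's own ratio or the authors' table, 2 genes differed between 8 and 24 h and 2 between 48 and 72 h, and the median of all genes at 48 h was -0.11. With the spread scaled between arrays, 0, 1, 1 and 0 genes were called for 3, 8, 24 and 48 h, against 0, 628, 329 and 721 of all 23979 genes tested. In that setting 0 differed between neighbouring time points and 0 passed the F test. Without the filter on dim probes 0 differed between 48 and 72 h. With the replicate block, which changed no other count in this section by over 1.5 times, 2 genes were called at 48 h and 0 differed between 48 and 72 h. The alternative probe A_55_P1992149 turned Dnaja1 at 8 h to -0.44, and A_52_P12877 put Hspa8 at 48 h at 0.55 against -0.04.

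Leaving out each array in turn gave 2 to 6, 2 to 6, 5 to 6, 0 to 2 and 0 genes called for 3, 8, 24, 48 and 72 h. Differences between neighbouring time points then numbered 0 to 6, 0 to 3, 0 to 5 and 0 to 1, and 7 to 9 genes passed the F test. In control livers 0 to 3 genes changed over time and in treated livers 6 to 9. A left-out array leaves a time point with 1 array, assumed to vary like the others. At 3, 8, 24 and 48 h, fewer of all genes were also called when an array of that time was left out. These ranges therefore do not single out the 9 genes.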
